A study of Mus musculus with 10 samples.

Results

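Pax5 binding at promoters was examined for the 8432 peaks of the Pax5+/+ ChIP-seq list, 20.1% of its 41983 peaks, that were under 1000 bp wide, met a peak of the Pax5R31Q/- list by at least 1 bp and had a base within 1000 bp of the transcription start site (TSS) of a RefSeq transcript on GRCm38. They are called shared promoter peaks here. ChIP-seq maps the DNA fragments that an antibody to a protein pulls down, and a peak is an interval where such fragments pile up over an input control. The 2 ChIP-seq libraries came from C57BL/6 bone marrow pro-B cells in short-term culture, one labelled Rag2-/- (wild-type for Pax5) and one labelled Pax5R31Q/-. RNA-seq covered 8 libraries of C57BL/6 bone marrow cells with 2 libraries per genotype: Pax5+/+, Pax5+/- and Pax5R31Q/- pro-B cells, and Pax5fl/fl Vav-Cre cells, labelled as progenitors, in which Cre acts in all haematopoietic cells and removes Pax5 (Pax5-null below).

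Pax5 is the transcription factor that commits progenitors to the B cell lineage. It binds DNA through its paired domain, which has an N-terminal and a C-terminal module that touch separate parts of a long recognition sequence, and it both activates genes of B cells and represses genes of other lineages. R31Q replaces an arginine of the N-terminal module. Many promoters of genes used in most cells lie in CpG islands, stretches rich in G, C and the dinucleotide CpG, which are unmethylated and open.

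There was 1 ChIP-seq library per genotype, so differences in binding have no replicate check. The lists give a start and an end for each peak with no height, summit or score, and how deeply the ChIP-seq libraries were sequenced was not analysed here. The authors' methods equalised read numbers where peak regions were compared, without naming the lists this was done for. The antibody was raised to the paired domain, in which R31Q lies, and whether it sees both proteins alike was not tested. The Pax5+/+ cells for ChIP-seq also lacked Rag2, whereas one label of the other library writes the R31Q allele as an allele of Rag2, and its genotype label was followed. The RNA came from freshly sorted cells and not from culture. Of 10 pro-B cell markers, 9 had at least 10 TPM (a level scaled by gene length and by the library total) in every genotype. The summed TPM of all 10 was 15900 to 18600 in Pax5+/+, 14600 to 15000 in Pax5R31Q/- and 7720 to 8440 in Pax5-null libraries. That of the T cell markers was 60.7 to 63.7, 94.8 to 99.2 and 272 to 274 TPM in the same order, with 3 of 4 measured markers under 1 TPM in every genotype. Myeloid markers summed to 126 to 164 TPM in Pax5+/+, 179 to 217 in Pax5R31Q/- and 96.3 to 489 TPM in Pax5-null libraries. Erythroid markers summed to 75.9 to 128, 95.3 to 120 and 13 to 34.4 TPM, and stromal markers to 13.7 to 15.7, 5.58 to 6.94 and 3.26 to 15.2 TPM. Pro-B cell and stromal sums were thus lower, and T cell and myeloid sums higher, in both Pax5R31Q/- libraries than in both Pax5+/+ libraries. The same shifts were seen in both Pax5+/- libraries. Their sums were 14800 to 15700 TPM for pro-B cell, 2.4 to 2.55 for stromal, 96.3 to 98.2 for T cell and 198 to 277 TPM for myeloid markers. The part of these cells in the results was not tested.

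The sequence of the Pax5 site is long and degenerate, so exact letters were searched on both strands in the 300 bp around each peak midpoint: the half-site GCGTGAC, and a longer site with CANTG, 2 further bases and GCGTGAC. Only 6 of the 8432 shared promoter peaks (0.0712%) held the longer site, against 0.296% of the 6425 shared peaks farther from a TSS (shared distal peaks) and 0.0213% of 32817 RefSeq promoters of the same length. All 6 are shown, because they are the shared promoter peaks that matched both parts of the site letter for letter in these windows. Sites that differ in a fixed letter were not counted. The longer site is in capitals and read 5′ to 3′ along the strand on which it lies.
Fubp1 and Dnajb4: ccgcgcgaCACTGTTGCGTGACgtccccgc
Gfus: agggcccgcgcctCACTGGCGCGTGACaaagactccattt
Coq9 and Ciapin1: cgcggcccCACTGACGCGTGACgctgcccg
Gpr176: ttttgcccCAGTGGAGCGTGACttcgtcgc
Prdm8: aatctgccCAATGACGCGTGACagcccacg
Gm52196: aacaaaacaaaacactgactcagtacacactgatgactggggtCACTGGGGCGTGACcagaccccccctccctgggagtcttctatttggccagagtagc

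On GRCm38 these stretches lie at chr3:152210104-152210133 (plus strand), chr15:75929822-75929861 (minus), chr8:94838350-94838379 (plus), chr2:118374086-118374115 (plus), chr5:98180804-98180833 (minus) and chr15:76117204-76117303 (minus). The match falls in an exon at Fubp1, Coq9, Gpr176 and Prdm8, in an intron at Gm52196 and outside transcripts at Gfus. Fubp1 and Dnajb4, and likewise Coq9 and Ciapin1, are pairs of genes whose TSSs share 1 peak. In every one of the 6 the match lay within 42 bp of the peak midpoint. Fubp1, which codes for a single-strand DNA binding protein, had 102 TPM in Pax5+/+ cells, Gfus, an enzyme of GDP-fucose synthesis, 80.1 TPM and Coq9, of coenzyme Q synthesis, 36.4 TPM. Gpr176 and Prdm8 had 0.233 and 0.0115 TPM. The site thus stood at promoters of expressed and of nearly silent genes.

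The half-site alone was found in 575 of the 8432 windows (6.82%, Wilson 95% interval 6.3 to 7.38%). The interval covers counting error only. By comparison, 8.16% of shared distal peaks, 4.34% of the 1059 Pax5+/+ promoter peaks that met no Pax5R31Q/- peak (lost promoter peaks) and 2.09% of all promoters held it. With 1 base left free, GCNTGAC, the order of the promoter classes turned, with 15.9% of shared and 18.8% of lost promoter peaks, beside 21.8% of shared distal peaks and 10.7% of all promoters. Because promoters are rich in G and C, the same letters in reverse order, CAGTGCG, served as a control of equal composition. They were in 5.83% of shared promoter peaks, 1.76% of shared distal peaks, 1.61% of lost promoter peaks and 2.91% of all promoters. At shared promoter peaks the half-site was thus 6.82% against 5.83% for its control, at shared distal peaks 8.16% against 1.76% and at lost promoter peaks 4.34% against 1.61%. Promoters with no peak in the Pax5+/+ list although their gene had at least 10 TPM held the half-site in 0.775% (17 of 2193) and the control in 3.1%, whereas promoters with a shared peak, in windows set by the TSS, held them in 4.79% and 5.34%. At promoters with no peak the control letters were thus more frequent than the half-site. They match it in composition but not in background share. Of the 595 half-site matches, 30 overlapped a cAMP response element, TGACGTCA, with which it shares letters.

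Half-site matches were denser near the midpoint of the peaks than away from it. Counted per 100 peaks and 100 bp, half-site matches at shared promoter peaks numbered 2.74 within 100 bp of the midpoint and 0.489 from 300 to 500 bp away, a ratio of 5.6. The control letters gave 2.18 and 0.967, a ratio of 2.25. At shared distal peaks the ratios were 22.1 and 2.13, and at lost promoter peaks, with 39 half-site matches within 100 bp and 16 from 300 to 500 bp away, 4.87 and 0.801. GC content fell from 65.2% to 54.7% over the same distance at shared promoter peaks and from 52.4% to 46.8% at shared distal peaks. ETS sites, CCGGAAG, which ETS family factors bind at many promoters, had a ratio of 6.58 at shared promoter peaks.

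**Figure D1:**
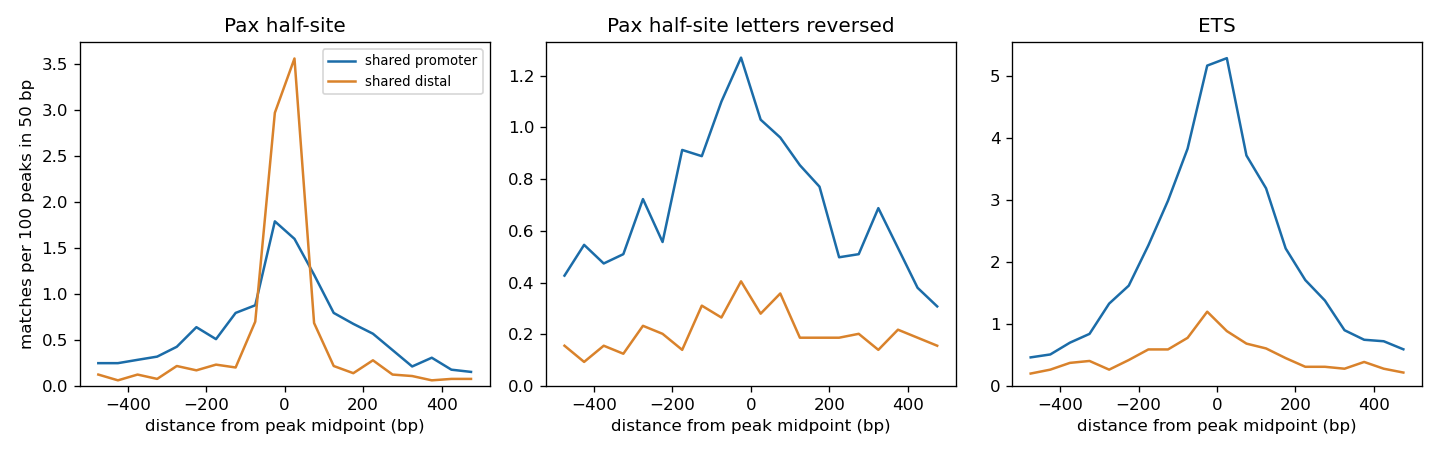
Matches per 100 peaks in 50 bp steps (y axis) against the distance from the peak midpoint in bp (x axis) for the Pax half-site, its letters reversed and the ETS site, at shared promoter (blue) and shared distal (orange) peaks. The y axes differ between panels. The half-site peaks at the midpoint in both classes, with a centre to flank ratio of 5.6 at promoters and 22.1 at distal peaks.

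Other promoter sequences differed in direction between shared promoter peaks and all promoters. ETS sites were in 19.6% of windows and in 8.86% of all promoters, SP/KLF sites, GGGCGG, in 68.5% and 35.6%, NRF1 sites, GCATGCGC, in 5.56% and 2.71%, and YY1 sites, AAGATGGC, in 5.3% and 2.74%. TATA boxes, TATAAA, went the other way, with 3.33% against 13.6%, as did the Ikaros site TGGGAA with 19.8% against 25.6%. The windows were centred on the peak midpoint for shared promoter peaks and set by the TSS for all promoters. The CCAAT box was in 33.7% against 37.4%, but in 38.9% of promoters with a shared peak in windows set by the TSS. In those windows the other sites named so far kept their direction. Sites of B cell factors were more frequent at shared distal peaks: the RUNX site TGTGGT was in 35.9% of those and 13.5% of shared promoter peaks, the E2A site CAGGTG in 30.5% and 18.9%, and the EBF site, TCCC, 2 bases and GGGA, in 3.89% and 1.48%. These are matches to letters, not measured binding.

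Shared promoter peaks were rich in CpG in most cases. The median GC content of the 300 bp windows was 65.3%, against 50.7% at lost promoter peaks and 51.0% at shared distal peaks. CpG observed over expected, the count of CpG relative to that from the C and G content, had a median of 0.84 against 0.356 and 0.265. It exceeded 0.6 in 82.3% of shared promoter peaks, 28.2% of lost promoter peaks and 10% of shared distal peaks. Repeats covered over 50% of the window in 0.783% of shared promoter peaks. Among all Pax5+/+ promoter peaks under 1000 bp, the share that met a Pax5R31Q/- peak was 30.4% where GC was under 45%, 72.7% from 45 to 55%, 93.1% from 55 to 65% and 96.6% from 65% upwards.

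The peaks sat on the start site. A TSS lay inside 7117 of the 8432 peaks (84.4%) and 37.6% of lost promoter peaks, and the midpoint was within 100 bp of a TSS in 60.2% and 28.4%. The median midpoint was 0.5 bp upstream of its nearest TSS. TSSs of both strands were near 1984 peaks (23.5%), against 11% of lost promoter peaks. The midpoint fell in an exon in 54.1%, in an intron in 16.4% and outside transcripts in 29.5%. One gene was assigned to 6297 peaks, 2 genes to 2044 and more to 91.

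The peaks were wider in the Pax5R31Q/- list than in the Pax5+/+ list. The limit on width that chose the members applied to the Pax5+/+ list alone, which favours wider partners in the other list. The median width was 515 bp in the Pax5+/+ list (quartiles 386 and 671 bp) and 731 bp for the matching Pax5R31Q/- peak (550 and 955 bp). The Pax5R31Q/- peak was the wider one at 7628 peaks (90.5%), was at least 2-fold wider at 1354 (16.1%) and covered the whole Pax5+/+ peak at 5893 (69.9%). At shared distal peaks the median ratio of widths was 1.13, with 69.3% wider, and at shared promoter peaks 1.33. The ratio was higher at promoters in each class of Pax5+/+ width, from 1.61 against 1.27 under 350 bp to 1.14 against 1.01 at 800 bp and over. The fall across classes is built in, since the width that sets the class also divides the ratio. Choosing the peaks by their Pax5R31Q/- width in place of the Pax5+/+ width gave 1.25, and dropping the width limit 1.3. Over the whole lists the median widths were 332 and 559 bp. Width depends on depth and on the caller as well as on binding, and the part of depth was not tested.

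**Figure D2:**
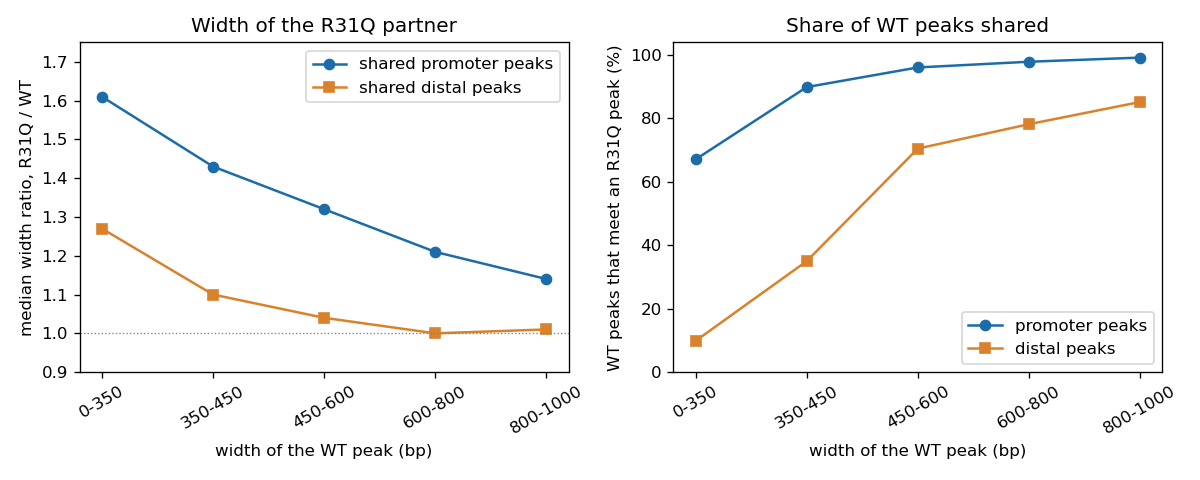
Left, median ratio of the Pax5R31Q/- to the Pax5+/+ peak width (y axis) by width of the Pax5+/+ peak in bp (x axis) for shared promoter (blue) and shared distal (orange) peaks, with equal widths at the dotted line. Right, share of Pax5+/+ peaks in percent that met a Pax5R31Q/- peak. The promoter ratio lay above the distal one in every class, and the fall of both with width is built in, since the Pax5+/+ width divides the ratio. The promoter share rose from 67.1% to 99.2% and the distal share from 9.85% to 85.2%.

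Of the Pax5+/+ promoter peaks under 1000 bp, 88.8% met a Pax5R31Q/- peak, against 20.3% of distal peaks. The gap narrowed with width, and 23224 distal peaks were under 350 bp, where the shares were 67.1% and 9.85%. From 450 to 600 bp they were 96.1% and 70.5%, and from 800 bp 99.2% and 85.2%. Repeats filled over 50% of the window in 74.6% of the lost distal peaks, and without such windows the shares were 89.3% and 48.7%. The widest members were 999 bp long, at Cfap58, Ywhag and Tssc4, and the narrowest peaks left out were 1000 bp long, at 2900060B14Rik, Gm26444 and Gtf2a1. The members farthest from a TSS were 1000, 999 and 998 bp away, near Fosb, Gm30189 and Bpifb4, and the nearest peaks left out 1002, 1003 and 1004 bp. The smallest overlaps were 25, 29 and 42 bp, at Ift57, Sfmbt1 and Baz2a, and the smallest gaps of peaks left out 4, 53 and 69 bp, at Slc9a8, Wdr73 and Gm32039.

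The shared promoter peaks lay at 9620 RefSeq genes, of which 8439 were among the genes with RNA-seq values. These genes were expressed: their median level in Pax5+/+ cells was 29.5 TPM, 90.4% had at least 1 TPM, and they held 72.2 to 73.1% of the TPM of each of the 8 libraries. Genes with only a lost promoter peak had a median of 4.02 TPM and genes with no Pax5+/+ promoter peak 0.013 TPM. A gene with both a shared and a lost promoter peak was counted with the shared peaks. Genes with a shared peak can thus also have a lost one. The share of genes with a shared promoter peak was 2.54% among those at 0 TPM, 36.2% from 1 to 5 TPM, 69.1% from 10 to 50 TPM and 73.5% above 100 TPM. Both CpG content and level went with it. Among promoters with a CpG ratio over 0.6, 73.9% had a shared peak where the gene had at least 10 TPM and 19.2% where it had under 1 TPM, and among other promoters 35.3% and 1.8%.

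**Figure D3:**
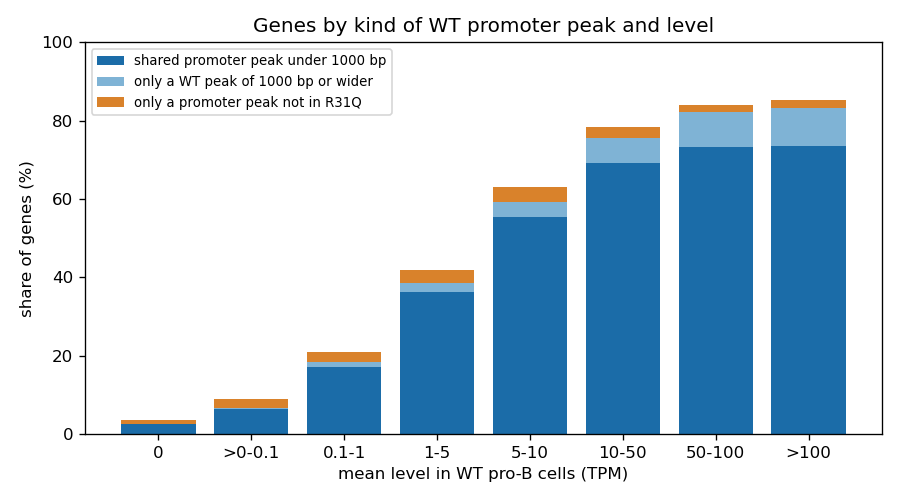
Share of genes in percent (y axis) with each kind of Pax5+/+ promoter peak, by mean level in the 2 Pax5+/+ libraries in TPM (x axis), split by the kind of peak. Shared promoter peaks (dark blue) rose from 2.54% of genes at 0 TPM to 73.5% above 100 TPM. Genes with only a promoter peak absent from the Pax5R31Q/- list (orange) stayed between 0.83% and 3.78%.

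Of all genes matched to RefSeq, 34% had a shared promoter peak, and of those above 10 TPM 69.1 to 73.5%, by class of level. Such peaks were found at 21 of 25 genes known to be activated by Pax5 and 7 of 20 (35.0%) known to be repressed, at 25 of 30 transcription factors of the B lineage and 25 of 30 genes of signalling from the pre-B cell and B cell receptors. They were also at 38 of 43 DNA replication genes, 28 of 35 mitosis genes, 66 of 84 cytosolic ribosomal protein genes, 59 of 77 of the mitochondrial ribosome, 58 of 73 of the respiratory chain, 31 of 39 of the proteasome and 25 of 33 of the spliceosome. Of 37 subunits of the BAF remodelling complexes and of corepressors, 26 had one and 8 had only a wider Pax5+/+ peak. Genes of other tissues rarely had one: 2 of 13 erythroid, 4 of 18 T cell, 1 of 19 liver, 2 of 20 neuronal and 1 of 1105 olfactory receptor genes. Their median Pax5+/+ levels were 5.64, 0.365, 0, 0.00753 and 0 TPM in that order. Of all genes matched to RefSeq, 2.54% had a shared promoter peak at 0 TPM, 6.36% up to 0.1 TPM and 17.1% from 0.1 to 1 TPM. Of the 4 T cell genes with at least 10 TPM, 3 had one. Whether tissue mattered beyond level was not tested. Of the genes activated by Pax5, Siglecg had a lost peak, and Cd55, Cd83 and Fcer2a had no promoter peak.

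**Figure D4:**
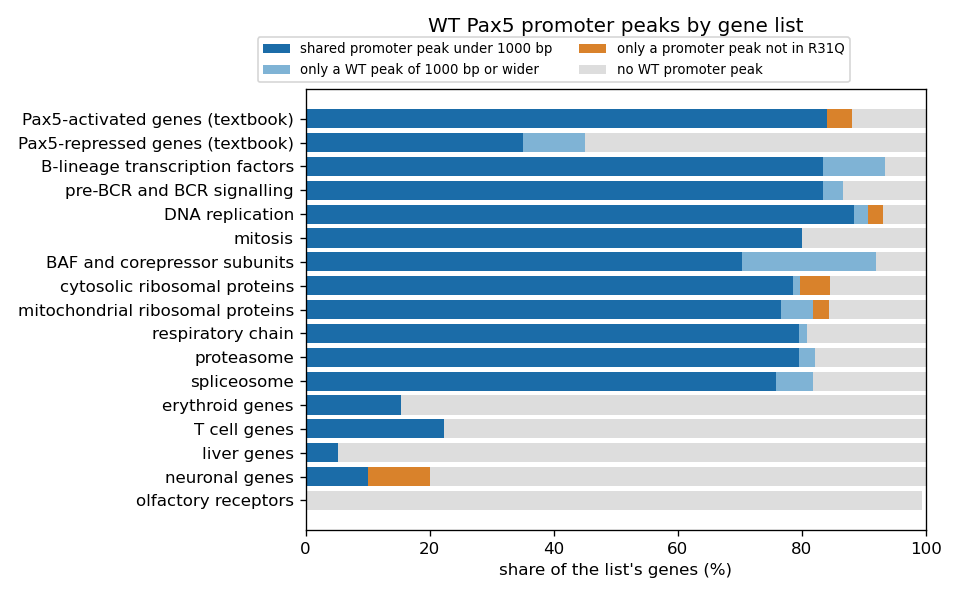
Share of the genes of each list in percent (x axis) by kind of Pax5+/+ promoter peak. Lists of general functions and of the B lineage had shared promoter peaks (dark blue) at 70.3% to 88.4% of their genes, genes repressed by Pax5 at 35.0%, and lists of other tissues at 0.0905% to 22.2%.

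Expression was compared by limma on log2(TPM + 1) over 13436 genes. A gene was called when its Benjamini-Hochberg adjusted p was under 0.05, its change over 3-fold and its mean over 5 TPM in one of the genotypes. With 2 libraries against 2 an exact two-sided permutation test of a single gene cannot go below p = 0.333, so the calls depend on how limma pools the variance of many genes, and nothing says that the 2 libraries came from separate animals. In bulk samples, fewer cells of a type and less RNA per cell cannot be told apart. Of the 8439 genes with a shared promoter peak, 7792 passed the filter of 1 TPM in a library.

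Few of these genes changed in Pax5R31Q/- cells. Called lower were 26 (0.334%) and called higher 9 (0.116%), beside 0.558% and 0.275% of all genes tested, and the median log2 change was 0.05 against 0.04 for all genes. Of the 359 tested genes with only a lost promoter peak, 18 (5.01%) were lower and 3 higher. Among genes with at least 10 TPM in Pax5+/+ cells, 0.373% of those with a shared peak and 6.76% of those with only a lost peak were called lower. The share was 1.36% with no Pax5+/+ promoter peak, beside 0.685% of all genes tested at that level. Without Pax5R31Q/- replicate 1 the count called higher was 4 and without Pax5+/+ replicate 2 it was 5.

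Hdac11, a histone deacetylase, had the largest fall on the log2(TPM + 1) scale. It had 40.6 and 48.7 TPM in Pax5+/+, 5.38 and 6.74 in Pax5+/-, 2.53 and 2.56 in Pax5R31Q/- and 13.7 and 11.3 TPM in Pax5-null cells. The groups did not overlap, and Pax5R31Q/- cells lay below Pax5-null cells. The log2 change of Hdac11 was -3.68 ± 0.18 (SE, n = 2 per genotype, limma adjusted p = 0.000237) against Pax5+/+. Its peak on chromosome 6, from 91156565 to 91157110, was 546 bp wide and that in the Pax5R31Q/- list 328 bp.

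Polm, the DNA polymerase mu of end joining, had 34.8 and 31.1 TPM in Pax5+/+, 17.7 and 12.3 in Pax5+/-, 1.87 and 2.01 in Pax5R31Q/- and 1.26 and 0.919 TPM in Pax5-null cells. Its log2 change was -3.53 ± 0.21 (limma adjusted p = 0.000313), with peaks of 957 and 1031 bp. Edaradd, an adaptor of the ectodysplasin receptor, had 26.0 and 26.2 TPM in Pax5+/+, 1.48 and 1.52 in Pax5R31Q/- and 0.381 and 0.489 TPM in Pax5-null cells. Both genes were thus low in each mutant, with heterozygous cells in between.

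Uchl1, a ubiquitin hydrolase, had 128 and 172 TPM in Pax5+/+, 15.2 and 14.9 in Pax5R31Q/- and 10.8 and 12 TPM in Pax5-null cells. Pinlyp, a phospholipase inhibitor, had 3.94 and 6.73 TPM in Pax5+/+ cells and was listed at 0 in both Pax5R31Q/- libraries. The order of these genes rests on the pseudocount, since with 0.1 TPM in place of 1 the log2 change of Pinlyp was -5.71 and that of Hdac11 -4.07. Nedd9, a docking protein of cell adhesion and a known target that Pax5 activates, was the 1 called gene of the 20 tested in that list, with 225 and 185 TPM in Pax5+/+, 45.4 and 44.9 in Pax5R31Q/- and 18.7 and 19.3 TPM in Pax5-null cells. Its peaks were 545 and 605 bp wide. The call asks for a change over 3-fold, and the median log2 change of the 20 genes was -0.67 beside 0.04 for all genes tested. Without the fold threshold, 7 of the 20 had a limma adjusted p under 0.05, beside 4.17% of all genes tested and 3.38% of those with a shared promoter peak, and 14 an unadjusted p under 0.05.

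Of 25 tested genes of signalling from the pre-B cell and B cell receptors, 2 were called lower and 0 higher, with a median log2 change of -0.245, beside 0.04 for all genes tested. A limma adjusted p under 0.05 was reached by 7 of the 25, beside the 4.17% of all genes. Pik3ap1, an adaptor that links the B cell receptor to PI3 kinase, had 471 and 497 TPM in Pax5+/+ and 143 and 115 TPM in Pax5R31Q/- cells (log2 change -1.91 ± 0.15, limma adjusted p = 0.0011). Rasgrp3, an activator of Ras, had 8.22 and 10.1 TPM in Pax5+/+, 1.82 and 2.19 in Pax5R31Q/- and 11.7 and 24.0 TPM in Pax5-null cells. It was thus lower in Pax5R31Q/- than in either other genotype. Klf2, a transcription factor of lymphocyte quiescence and the 1 called of 25 tested transcription factors of the B lineage, had 69.8 and 61.9 TPM in Pax5+/+ and 22.1 and 13.3 TPM in Pax5R31Q/- cells. Those 25 factors had a median log2 change of -0.28, with 5 at a limma adjusted p under 0.05 and 11 at an unadjusted p under 0.05. The calls of Rasgrp3 and Klf2 were lost without any 1 of the 4 libraries compared, with adjusted p from 0.0584 to 0.171 and from 0.0561 to 0.135, and that of Rasgrp3 also with no TPM filter (0.06).

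Pgf is a growth factor of the VEGF family. It had 1.79 and 2.54 TPM in Pax5+/+, 3.77 and 4.96 in Pax5+/-, 15.5 and 15.3 in Pax5R31Q/- and 1.42 and 1.6 TPM in Pax5-null cells. Pgf was high in Pax5R31Q/- cells alone, with a log2 change of 2.39 ± 0.19 against Pax5+/+ (limma adjusted p = 0.00117) and 2.71 ± 0.19 against Pax5-null (adjusted p = 9.25e-05). Its peak of 452 bp lay 472 bp upstream of the nearest TSS and was 430 bp wide in the other list. Fbp1, an enzyme of gluconeogenesis, had 8.26 and 9.75 TPM in Pax5+/+, 39.2 and 32.4 in Pax5R31Q/- and 4.52 and 3.3 TPM in Pax5-null cells.

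Dtx4, a ubiquitin ligase of the Notch pathway, had 1.58 and 1.59 TPM in Pax5+/+, 11.6 in both Pax5R31Q/- libraries and 67.9 and 79.0 TPM in Pax5-null cells, so that Pax5R31Q/- cells lay between. Eef1akmt1, a methyltransferase of a translation elongation factor, had 4.73 and 2.7, then 19.2 and 19.1, then 50 and 41.4 TPM in the same order. Ell3, a transcription elongation factor, had 5.49 and 7.56, then 31.8 and 20.1, then 42.3 and 39.7 TPM. The calls of Eef1akmt1, Fbp1 and Ell3 were lost when some single libraries were left out, with adjusted p from 0.0523 to 0.19, and Ell3 also with no TPM filter (0.0629).

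**Figure D5:**
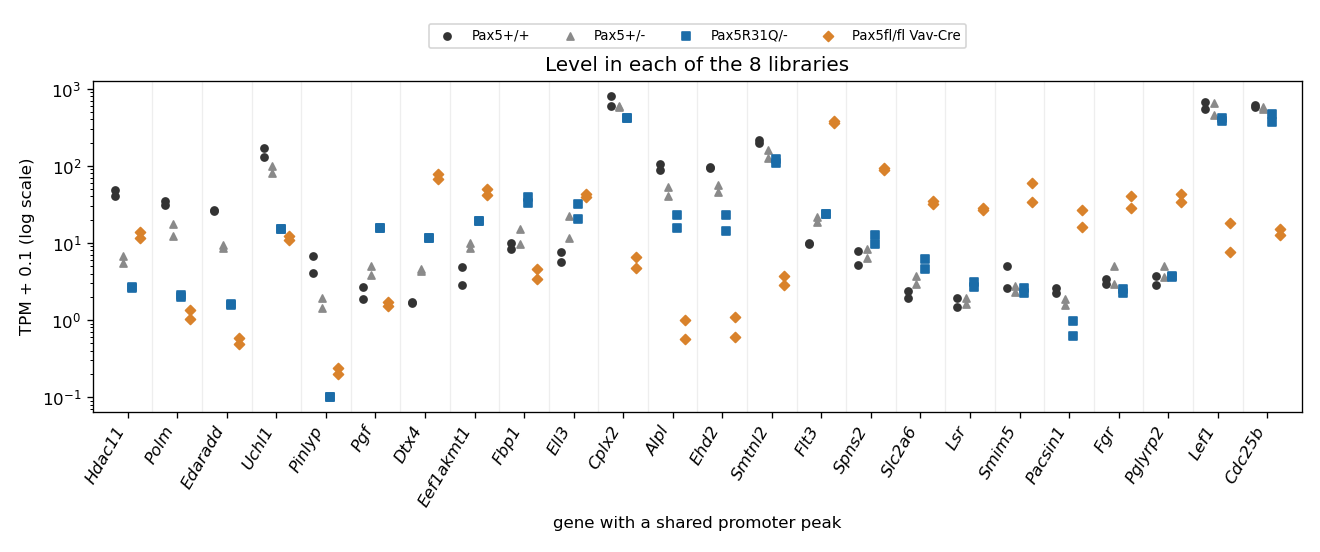
TPM plus 0.1 on a log scale (y axis) in each of the 8 libraries for the genes with a shared promoter peak named by the size of their change (x axis), with 2 points per genotype. Hdac11 and Pgf differ between Pax5R31Q/- cells (blue squares) and both other ends of the series, and Cplx2 and Flt3 differ mainly in Pax5-null cells (orange diamonds).

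More of these genes were called in Pax5-null cells. Against Pax5+/+, 249 of the 7792 (3.2%) were called lower and 121 (1.55%) higher in Pax5-null cells, beside 3.45% and 2.87% of all genes tested. Of the 20 tested genes that Pax5 activates, 13 were lower, with a median log2 change of -2.21 beside -0.11 over all genes. Of the 7 tested genes that it represses, 3 were higher (median 1.27). Mitosis genes were lower in 21 of 28 (median -2.04), and 1 of 38 DNA replication genes was. No ribosomal protein gene of the cytosol (66 tested) or of mitochondria (59) passed the limma call, which asks for a change over 3-fold. The median log2 changes were 0.65 and -0.20, with 37 and 14 genes at an adjusted p under 0.05 and 50 and 25 at an unadjusted p under 0.05. Of all genes tested, 35.9% had an adjusted p under 0.05 in this comparison.

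Cplx2, a complexin of vesicle fusion, had 588 and 793 TPM in Pax5+/+, 417 and 420 in Pax5R31Q/- and 6.43 and 4.64 TPM in Pax5-null cells, a log2 change of -6.72 ± 0.18 (limma adjusted p = 1.11e-06) for Pax5-null against Pax5+/+. The Pax5R31Q/- level of Cplx2 lay near that of Pax5+/+ cells and far from that without Pax5. Its peaks were 761 and 912 bp wide.

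Alpl, an alkaline phosphatase, had 86.7 and 105 TPM in Pax5+/+, 23.1 and 15.7 in Pax5R31Q/- and 0.889 and 0.473 TPM in Pax5-null cells. Ehd2, a membrane-shaping ATPase, had 96.4 and 94.0, then 23.0 and 14.1, then 0.978 and 0.509 TPM. Both were called lower in each mutant, with Pax5R31Q/- cells between. Smtnl2 had 196 and 217 TPM in Pax5+/+, 121 and 107 in Pax5R31Q/- and 3.61 and 2.78 TPM in Pax5-null cells.

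Flt3, the receptor kinase of early lymphoid progenitors, had 9.79 and 9.54 TPM in Pax5+/+, 18.8 and 21.6 in Pax5+/-, 23.6 and 23.9 in Pax5R31Q/- and 385 and 356 TPM in Pax5-null cells. Its log2 change was 5.12 ± 0.12 in Pax5-null cells (limma adjusted p = 9.98e-07), and at 1.21 ± 0.12 in Pax5R31Q/- cells it stayed under the 3-fold limit. The Flt3 peak was 275 bp wide in Pax5+/+ and 609 bp in Pax5R31Q/- cells. Notch1, the receptor that directs T cell fate, had 56.8 and 74.7 TPM in Pax5+/+, 83.8 and 71.9 in Pax5R31Q/- and 298 and 263 TPM in Pax5-null cells, with peaks of 783 and 1504 bp. Spns2, an exporter of sphingosine phosphate, Slc2a6, a hexose transporter, and Lsr, a lipoprotein receptor, rose in Pax5-null cells by 3.67, 3.48 and 3.45 on the log2 scale.

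Against Pax5-null cells, Pax5R31Q/- cells had 205 of the 7792 genes higher (2.63%) and 79 lower (1.01%), beside 2.72% and 2.24% of all genes tested. Without Pax5-null replicate 2 the count called higher was 321. Mitosis genes were higher in 26 of 28 (median log2 change 2.28 beside 0.13 over all genes), and genes that Pax5 activates in 9 of 20, with 1 lower. Lef1, a factor of the Wnt pathway, had 383 and 414 TPM in Pax5R31Q/- and 7.41 and 18.2 TPM in Pax5-null cells. Cdc25b, a phosphatase that drives entry into mitosis, had 463 and 374 against 14.9 and 12.7 TPM.

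Lower in Pax5R31Q/- cells were Fgr, a kinase of the Src family, with 2.45 and 2.11 TPM against 28.0 and 40.4 in Pax5-null cells, and Pglyrp2, a peptidoglycan amidase, with 3.67 and 3.52 against 43 and 33.7 TPM. Smim5 had 2.14 and 2.5 against 33.4 and 59.8 TPM, and Pacsin1 0.52 and 0.864 against 15.8 and 26.6 TPM. The peak at Pacsin1 was 472 bp wide in Pax5+/+ and 1346 bp in Pax5R31Q/- cells.

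Pax5 itself has a shared promoter peak. It had 418 and 444 TPM in Pax5+/+, 272 and 287 in Pax5+/-, 306 and 293 in Pax5R31Q/- and 1242 and 1409 TPM in Pax5-null cells. A level per gene does not show which exons were read, so it checks neither the point mutation nor the deletion.

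Genes of general functions with a shared promoter peak were also compared between Pax5R31Q/- and Pax5+/+ cells. Rplp1, of the large ribosomal subunit, had 6117 and 7234 TPM in Pax5+/+ and 5827 and 6489 TPM in Pax5R31Q/- cells, and Atp5b, of ATP synthase, 1513 and 1220 and 1460 and 1430 TPM. For both the libraries of the genotypes overlapped. Pcna, the replication clamp, had 1432 and 1268 TPM and 1586 and 1881 TPM, which did not overlap (log2 change 0.36 ± 0.19, limma adjusted p = 0.344). None of the 38 tested replication genes or 28 mitosis genes was called by limma in Pax5R31Q/- against Pax5+/+ cells, with 0 of either at an adjusted p under 0.05 and 20 and 1 at an unadjusted p under 0.05. Of all genes tested, 4.17% had a limma adjusted p under 0.05. The share of all genes at an unadjusted p under 0.05 was not worked out, here or for the other lists. The median log2 changes were 0.40 and 0.14, beside 0.04 for all genes tested.

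The peaks at called genes were set beside those at all 7792 genes tested, with 1 peak, that nearest to a TSS, per gene. The CpG ratio exceeded 0.6 at 19 of the 26 genes called lower in Pax5R31Q/- cells (73.1%), at 5 of the 9 called higher and at 89.4% of all tested. The Pax5R31Q/- peak was the narrower one at 4 of the 26, 3 of the 9 and 7.97% of all tested, with median width ratios of 1.1, 1.21 and 1.33. The half-site was at 1 of the 26, 1 of the 9 and 6.46% of all tested. These counts are small and were not tested.

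Sequence from the shared peaks of 4 genes is shown, since these genes stand for the directions of change: Hdac11 and Pgf for lower and higher in Pax5R31Q/- cells, and Cplx2 and Spns2 for lower and higher in Pax5-null cells. Flt3 is left out because exons filled its peak. Dtx4, with the next largest rise in Pax5-null cells (log2 change 4.84, against 3.67 for Spns2), is not shown either. Its stretch free of exons had 148 bases, 49.3% GC and none of the letters marked below. Each sequence shown is the longest stretch free of RefSeq exons, limited to 150 bases, on the plus strand of GRCm38. Capitals mark matches to the SP/KLF, RUNX or E2A letters given above, on either strand. None of these stretches held the ETS site or GCNTGAC, the half-site with any base at position 3.
Hdac11: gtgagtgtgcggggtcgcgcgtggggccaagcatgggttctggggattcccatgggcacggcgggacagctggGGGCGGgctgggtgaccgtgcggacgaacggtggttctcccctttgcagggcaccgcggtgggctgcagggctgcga
Pgf: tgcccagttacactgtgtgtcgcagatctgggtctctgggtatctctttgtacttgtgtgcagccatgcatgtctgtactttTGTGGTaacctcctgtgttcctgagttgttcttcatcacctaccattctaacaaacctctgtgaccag
Cplx2: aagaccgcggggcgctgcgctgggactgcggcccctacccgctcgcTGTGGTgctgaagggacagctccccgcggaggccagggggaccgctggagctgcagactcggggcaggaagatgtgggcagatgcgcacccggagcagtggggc
Spns2: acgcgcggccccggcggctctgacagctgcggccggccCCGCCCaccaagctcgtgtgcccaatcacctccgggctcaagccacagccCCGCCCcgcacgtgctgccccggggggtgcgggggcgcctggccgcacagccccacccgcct

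They lie at chr6:91156848-91156997 in an intron of Hdac11 and chr13:54371687-54371836 in an intron of Cplx2, and outside transcripts at chr12:85178183-85178332 (Pgf) and chr11:72489977-72490126 (Spns2). GC content was 71.3% at Hdac11, 72.7% at Cplx2 and 79.3% at Spns2, and 47.3% at Pgf. The shared promoter peaks of genes with large changes thus included GC-rich and GC-poor ones.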

How the data were processed

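For RNA-seq, the authors removed ribosomal reads, aligned to GRCm38 with STAR, counted uniquely mapping reads per RefSeq gene and deposited the TPM of 25579 genes in every library. For ChIP-seq, the authors aligned with Bowtie2, down-sampled reads where needed and called peaks with MACS against a Rag2-/- pro-B cell input; the deposited lists hold a start and an end, with a score of 0 throughout. Versions in the submitters' processing notes are STAR 2.4.2, Bowtie2 2.3.5.1, SAMtools 1.9 and Picard 2.18.27. Read depth is not in the TPM values and was not analysed here, and the 2 libraries per genotype limit the precision.

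Peaks were tied to all RefSeq TSSs of GRCm38.p6 with Python 3.11.15, pysam 0.24.0 and scipy 1.17.1, and sequences are from RefSeq GRCm38.p6. Deposited symbols matched RefSeq for 24791 genes (96.9%). limma 3.58.1 in R 4.3.3 was fitted to log2(TPM + 1) of all 8 libraries with a variance trend, a scale that understates changes of low genes. The 13436 genes with at least 1 TPM in a library were tested, and 385 immunoglobulin genes were left out of calls. The test was run on simulated data first. The authors' counting does not state strand, so overlapping genes are uncertain.

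The members, gene lists, motifs and alternatives were chosen with earlier results of these data known. Named genes are, per comparison and direction, the 5 called ones that changed most, and of each list those called in Pax5R31Q/- against Pax5+/+ cells or the 3 with the highest Pax5+/+ level. Not every gene under the rule is described, and some are not reported here.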

Additional observations from a re-analysis of the deposited data

How the results depend on the processing

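No paired analysis was possible because the labels give no replicate numbers, and those used here follow accession order. A fold threshold of 2 moved the counts of genes with a shared promoter peak: for Pax5R31Q/- against Pax5+/+ to 79 lower and 45 higher, for Pax5-null against Pax5+/+ to 538 and 294, and for Pax5R31Q/- against Pax5-null to 242 and 557, since it takes in smaller changes. Leaving out 1 library gave 18 to 38 lower and 4 to 11 higher, 224 to 302 and 113 to 131, and 75 to 84 and 179 to 321, where a lone library is assumed to vary like the others. The count called higher in Pax5R31Q/- against Pax5+/+ was 4 without Pax5R31Q/- replicate 1 and 5 without Pax5+/+ replicate 2, and that against Pax5-null 321 without Pax5-null replicate 2. The other alternatives (pseudocount, TPM filter, libraries in the fit, scaling, variance trend, TSS window, overlap, curated transcripts) kept each count within 1.5 times. For the named genes, 610 of 630 repeats kept direction and call, 20 lost the call and 0 reversed. Most of the lost calls were in Pax5R31Q/- against Pax5+/+ cells, at Ell3, Rasgrp3, Klf2, Fbp1 and Eef1akmt1. The pooled count thus overstates how stable that comparison was. The half-site share was 5.22% in 200 bp windows. The median width of the Pax5R31Q/- peaks was 683 bp with an overlap of 50% of both peaks and 798 bp for peaks of at least 400 bp.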
